A study of Mus musculus with 36 samples.

Results

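The promoters described here are those of protein-coding genes that were methylated in the Control cells of the B3 line. A promoter was represented by a CpG cluster, that is a run of 20 or more measured cytosines with gaps of no more than 100 bp, that overlapped the 1000 bp on either side of a transcription start of a protein-coding gene (GENCODE M21, GRCm38) on an autosome. A cluster was taken as methylated when its mean level over the 18 Control samples was above 80%, so the Control levels are the values that chose the members and are given as a description. In total 4454 clusters met the rule, out of 12877 autosomal promoter clusters (34.6%) and 16734 clusters of the table (26.6%). They lay at the promoters of 3430 genes by symbol.

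Reduced representation bisulfite sequencing (RRBS), which reads methylation in CG-rich fragments cut by MspI, was applied to B3, a mouse pre-B cell line that models an early stage of B lymphocyte development. Cells of the Ikaros series carried a retroviral vector (HA-Ikaros-ERt2-IRES-GFP) whose Ikaros protein enters the nucleus on 4-hydroxy-tamoxifen (4-OHT), and cells of the Control series carried the vector without Ikaros. Both series were collected at 6 times (0, 2, 6, 12, 18 and 24 h) with 3 replicates each, which gave 18 samples per series. The labels list 0.5 µM 4-OHT for all samples, while the study's methods describe 0 h cells as collected without it. From 2 h on, replicates were separate time courses of the same transduced lines, so the spread covers batches of culture and not independent cell lines. The study's methods describe the uninduced cells as obtained separately. Comparisons with 0 h are therefore also comparisons between separate collections. By the labels, replicate 2 was batch 2 at 0 h and batch 3 at later times.

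Cytosine methylation in mammals sits mainly at CG dinucleotides, and most CG-rich promoters are kept free of it. Dense methylation of a CG-rich promoter is a stable mark of silence, known best from the inactive X chromosome, imprinted genes and the genes of the germline. Cultured lines often carry it at the CG-rich promoters of developmental genes that are not active in their tissue of origin.

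Sequences of 7 members are shown first because they stand for the gene groups described next. These are Dazl and Boll (germline), Klf5 (pluripotency), Camk2b (neuron), Gata2 (blood stem cell and myeloid), Ikzf1 (the gene of Ikaros itself) and Camk1d, which differed between the series. Each is the 250 bases of GRCm38 directly upstream of the first annotated exon at that promoter, written 5′ to 3′ on the strand of the gene, and capitals mark the CG dinucleotides that carry a methylation value. The Dazl stretch is chr17:50292893-50293142 (minus strand), the Boll stretch chr1:55363470-55363719 (minus strand), the Klf5 stretch chr14:99298441-99298690 (plus strand) and the Camk2b stretch chr11:6065749-6065998 (minus strand). The Gata2 stretch is chr6:88193641-88193890 (plus strand), the Ikzf1 stretch chr11:11685675-11685924 (plus strand) and the Camk1d stretch chr2:5714516-5714765 (minus strand).
Dazl: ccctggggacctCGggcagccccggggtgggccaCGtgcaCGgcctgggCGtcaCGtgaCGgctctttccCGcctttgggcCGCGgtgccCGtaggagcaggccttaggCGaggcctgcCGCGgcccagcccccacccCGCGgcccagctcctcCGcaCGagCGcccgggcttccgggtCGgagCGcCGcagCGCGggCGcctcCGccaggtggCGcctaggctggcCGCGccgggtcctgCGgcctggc
Boll: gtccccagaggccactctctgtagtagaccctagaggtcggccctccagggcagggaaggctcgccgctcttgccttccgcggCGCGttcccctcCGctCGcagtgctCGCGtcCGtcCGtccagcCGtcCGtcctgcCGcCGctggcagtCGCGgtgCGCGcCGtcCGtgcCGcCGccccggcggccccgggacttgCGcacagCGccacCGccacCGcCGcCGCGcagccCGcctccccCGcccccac
Camk2b: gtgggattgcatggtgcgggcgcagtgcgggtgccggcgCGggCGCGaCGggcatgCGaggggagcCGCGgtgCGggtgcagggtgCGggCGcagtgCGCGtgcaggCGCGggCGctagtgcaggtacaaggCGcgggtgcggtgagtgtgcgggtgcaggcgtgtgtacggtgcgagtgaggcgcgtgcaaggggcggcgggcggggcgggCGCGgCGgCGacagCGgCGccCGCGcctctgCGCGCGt
Gata2: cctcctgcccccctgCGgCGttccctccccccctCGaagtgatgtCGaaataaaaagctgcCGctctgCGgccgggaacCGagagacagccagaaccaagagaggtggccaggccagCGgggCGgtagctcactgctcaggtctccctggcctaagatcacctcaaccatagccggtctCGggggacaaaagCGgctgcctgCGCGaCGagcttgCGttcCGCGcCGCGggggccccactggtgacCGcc
Klf5: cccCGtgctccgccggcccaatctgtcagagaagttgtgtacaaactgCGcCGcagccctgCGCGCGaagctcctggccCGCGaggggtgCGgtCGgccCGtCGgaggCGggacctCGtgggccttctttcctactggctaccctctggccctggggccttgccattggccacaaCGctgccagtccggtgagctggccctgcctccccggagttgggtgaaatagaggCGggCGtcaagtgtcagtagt
Ikzf1: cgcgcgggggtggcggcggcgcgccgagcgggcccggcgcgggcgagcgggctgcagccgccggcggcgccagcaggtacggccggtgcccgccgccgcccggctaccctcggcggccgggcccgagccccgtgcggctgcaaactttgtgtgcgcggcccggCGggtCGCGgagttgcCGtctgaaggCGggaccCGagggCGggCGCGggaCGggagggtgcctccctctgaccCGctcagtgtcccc
Camk1d: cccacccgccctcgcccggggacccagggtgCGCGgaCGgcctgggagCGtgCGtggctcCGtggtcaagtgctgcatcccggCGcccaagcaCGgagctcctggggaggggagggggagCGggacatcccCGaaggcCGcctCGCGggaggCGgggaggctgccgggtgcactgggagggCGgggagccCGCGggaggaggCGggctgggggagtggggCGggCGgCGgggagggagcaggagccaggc

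Of the 33 CG dinucleotides in the Dazl stretch 29 were measured, and the mean level of the single positions there ran from 97.5% to 99.01% over the Control samples. In the Boll stretch 29 of 37 were measured, from 97.6% to 98.4%, and in Camk2b 27 of 44, from 97.7% to 98.3%. The Gata2 stretch had 20 of 22 measured, from 95.5% to 97.7%, and Klf5 had 17 of 21, from 97.3% to 98.3%. In the Ikzf1 stretch 11 of 44 were measured, all within 97.7% to 97.9%. The Camk1d stretch was the exception among these 7, with 21 of 26 measured and Control levels that ran from 57.5% to 82.4% along the sequence. The deposited levels were smoothed along the genome by the authors, so neighbouring positions are not independent measurements.

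No read numbers accompany the levels, and with the depth unknown the spread between samples is the only measure of precision. Control 0 h replicate 1 had the most empty values (11.6% of positions, against a Control median of 0.323%), and Ikaros 24 h replicate 2 the most in its series (3.18%). Without Control 0 h replicate 1 and Control 24 h replicate 2, the latter because it lay near the Ikaros samples at promoters described further on, the rule gave 4452 members.

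Promoter clusters were almost all near one end of the scale. Of the 12877 autosomal promoter clusters, 58.6% had a Control level under 10% and 32.0% one above 90%, while 555 lay between 30% and 70%. Members had a median Control level of 96.7%, with quartiles of 94.8% and 97.6% and a range of 80.2% to 99.2%. Of them, 4121 (92.5%) were above 90%. The members just inside the threshold were Ccdc151 (80.2%), Fosl1 (80.3%) and Tcf7l1 (80.3%), and the clusters just outside were Prkcq and Olfm2 (79.9% each) and Dcbld2 (79.9%). The highest Control value was in Control 0 h replicate 1 at Ccdc151 (96.5%) and Fosl1 (86.8%), and in Control 24 h replicate 2 at Tcf7l1 (92.9%). Their place above 80% thus leans on 1 sample each. The median SD over the 18 Control samples was 1.36 percentage points. The Ikaros samples, which the rule did not use, gave a median of 96.9% for the same clusters, and 4447 of the 4454 were above 80% there too.

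A transcription start lay inside 2431 members (54.6%), and 1649 members (37.0%) held the start of a principal transcript, the main isoform by the APPRIS annotation. Positions of the cluster within 200 bp of the nearest start were measured in 3159 members. There the mean Control level was above 80% in 3118 and above 90% in 2904, and 1 member lay under 50%, and these positions are part of those that chose the members. In the Ikaros samples, which did not, the counts were 3130, 2953 and 1. This member, singled out after its value was seen, was Camk2n1, an inhibitor of the kinase CaMKII, whose 3 positions near the start averaged 42.8% while its whole cluster averaged 84.4%. In members that held a principal start, the mean level was 94.9% in the 100 bp before the start and 95.6% in the 100 bp after it in Control samples, and 95.3% and 96.0% in Ikaros samples.

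**Figure D1:**
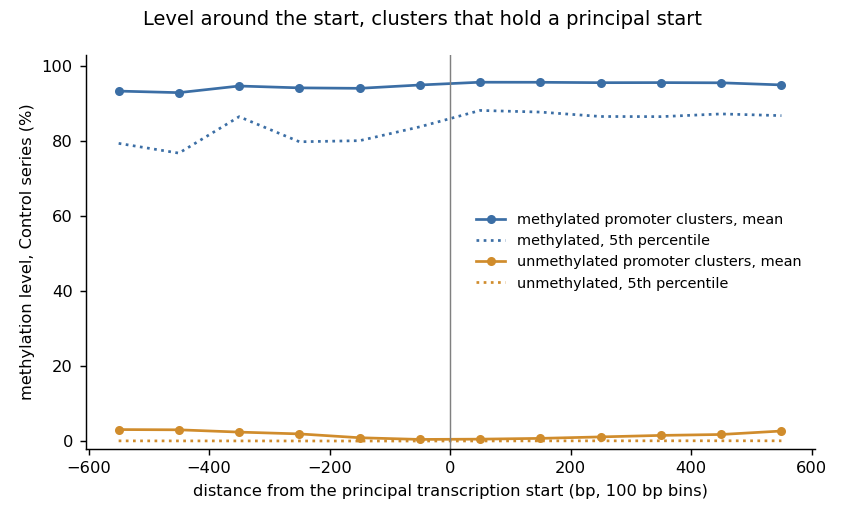
Mean Control methylation level (%) against the distance from the principal transcription start in 100 bp bins, for clusters that hold such a start (1649 methylated, 4565 unmethylated); dotted lines are the 5th percentile over clusters. The mean of the methylated clusters stays between 92.9% and 95.6% from 600 bp before to 600 bp after the start, and that of the unmethylated clusters dips to 0.493% just before it.

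Genes of the germline were methylated in almost every case measured. Of 65 germline genes in the list, 31 had a promoter cluster and 28 of these (90.3%) had a methylated one. Counting only clusters that held a start of the gene, 17 of 19 (89.5%) were methylated, where the share over all 8653 genes measured at a start was 26.2%. The 17 include Dazl, Ddx4 and Boll, which encode RNA-binding proteins and a helicase of germ cells, Mael, Asz1 and Rnf17 of the piRNA pathway, and Sycp1, Sycp2, Smc1b, Hormad1 and Terb1 of the meiotic chromosome. The 2 others, Syce2 and Mei4, had Control levels of 0.753% and 0.278%.

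The Dazl cluster (chr17:50292775-50293203, 75 positions) had a lowest, median and highest level of 95.2%, 98.0% and 98.8% in Control samples, and of 95.1%, 97.4% and 99.5% in Ikaros samples. The Boll cluster (chr1:55362602-55363760, 179 positions), at a principal start, gave 94.5%, 98.1% and 98.7% in Control and 93.0%, 97.4% and 99.2% in Ikaros samples. Ddx4, the mouse Vasa homologue, spread a little more, with 90.3%, 95.8% and 99.02% in Control and 91.5%, 94.7% and 97.5% in Ikaros samples. At all 3 genes every sample was above 90% and the series overlapped. Mael gave 95.1%, 97.6% and 98.9% in Control samples. Slc25a31, the ADP/ATP carrier of the testis, had the widest range of the 8 germline genes with most positions, since its lowest Control sample was at 81.5% against a median of 94.0%. In all, the 31 member clusters of the list had a median Control level of 96.2% and a range of 89.5% to 98.5%.

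**Figure D2:**
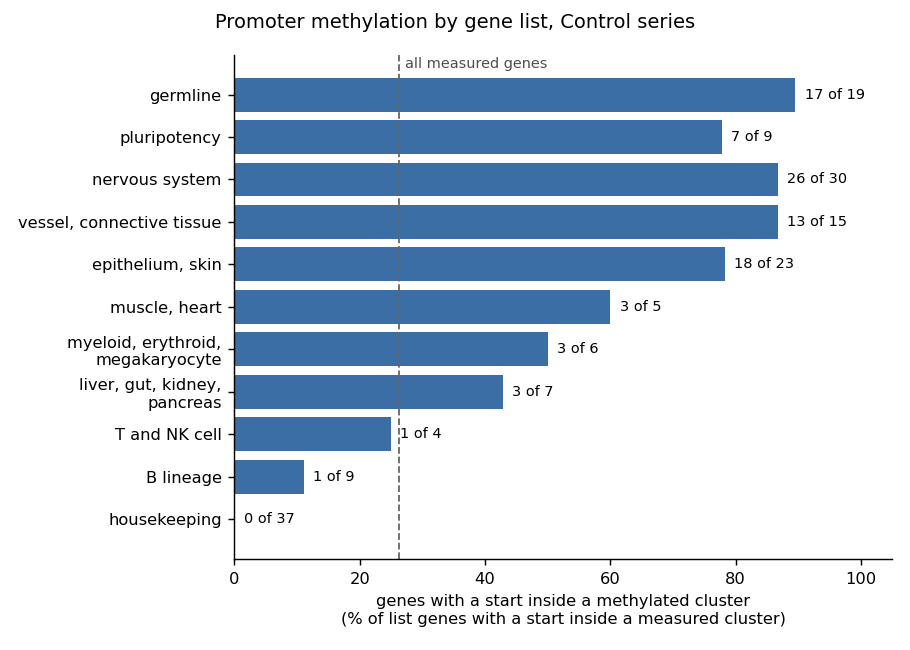
Share (%) of the genes of each list with a start inside a measured CpG cluster whose cluster was methylated in the Control series; numbers give methylated of measured genes and the dashed line the share over all measured genes (26.2%). The germline, nervous system and vessel and connective tissue lists stand at 86.7% or more, B lineage at 11.1% and housekeeping at 0%.

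Factors of pluripotent cells were methylated in 7 of the 9 genes measured at a start. Sox2 (chr3:34650392-34650716), a factor of pluripotent and neural stem cells, gave a lowest, median and highest level of 93.4%, 97.6% and 99.3% in Control samples and of 94.5%, 98.1% and 100% in Ikaros samples. Klf5, a factor of pluripotent and intestinal cells, was tighter, from 96.6% to 98.8% in Control and from 95.8% to 98.7% in Ikaros samples over 169 positions. Klf4, Sall4, Esrrb, Tfap2c and the growth factor Fgf4 had median Control levels from 95.8% to 97.6%, except that another Tfap2c cluster with a start (chr2:172550539-172550730) was at 80.4% ± 10.6 (SD, n = 18). Another Klf4 cluster, which begins at chr4:55532219, was not a member and differed between the series (limma adjusted p = 5.46e-09). The start of Klf2 was at 1.30%, although another cluster near it was a member, and Fbxo15 was at 0.622%.

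Genes of the nervous system made up the largest number of members among the lists. Of 43 with a promoter cluster 39 (90.7%) had a methylated one, and of 30 measured at a start 26 (86.7%) were methylated. They cover transcription factors (Neurog1, Neurog2, Pax6), neurofilaments (Nefl, Nefm), enzymes and transporters of transmitters (Gad1, Slc17a6, Slc6a3, Slc6a4), glutamate receptors (Grin2a, Grin2c, Gria2) and scaffolds of the synapse (Shank1, Shank3). Camk2b, a subunit of the neuronal kinase CaMKII, gave 96.2%, 98.1% and 98.9% as lowest, median and highest Control level over 181 positions, and 96.2%, 98.0% and 99.5% in Ikaros samples. Rbfox3, which encodes the neuronal marker NeuN, lay between 95.7% and 98.3% in Control samples. Kcna1, a potassium channel, was lower, with Control samples from 91.2% to 95.8% and Ikaros samples from 94.5% to 96.8%. The exceptions at a start were Map2 (44.6%), Tubb3 (74.1%), Mbp (12.6%) and Nefh (3.95%). Of these, Tubb3 was called for the difference between the series, with 83.3% in Ikaros samples (limma adjusted p = 0.000549).

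Genes of vessels and connective tissue were methylated in 13 of 15 measured at a start. The endothelial growth factor receptors Kdr and Flt1 and the endothelial factors Sox17 and Sox18 were among them, as were the collagens Col2a1 and Col5a1, the cartilage genes Sox9, Acan and Comp, and Runx2 of bone. Col5a1 (chr2:27886243-27887085) gave 95.5%, 97.0% and 98.4% in Control samples and 92.7%, 96.9% and 98.6% in Ikaros samples. Ltbp2, a matrix protein that binds fibrillin, was the lowest of the 8 with most positions, from 88.5% to 92.7% in Control samples. Runx2 was methylated in part of its promoter only, with clusters at 97.9% and 96.9% and another one that also held a start at 53.1%. Mmp14 (2.11%) and Fbln2 (77.7%) were the 2 genes without a methylated start.

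Epithelial genes were methylated in 18 of 23. Cdh1 (E-cadherin) had a Control level of 96.5% ± 1.01 (SD, n = 18), and Epcam, a surface marker of epithelia, gave 96.0%, 98.0% and 98.7% as lowest, median and highest over 138 positions in Control samples and 94.05%, 97.9% and 99.3% in Ikaros samples. Dsp and Pkp1 of the desmosome and Ovol1 and Ovol2, zinc finger factors of epithelial identity, were also members. Grhl1 (47.1%), Evpl, St14, Tjp3 and Foxj1 were measured at a start that was not methylated. Itgb4 is among the 18 through a cluster at 95.8%. Another Itgb4 cluster that held a start was at 59.5% in Control and 71.7% in Ikaros samples (limma adjusted p = 1.09e-09). For muscle and heart, 3 of 5 genes were methylated, namely Des (desmin), Ryr2 (the calcium release channel of heart) and Actn2 (sarcomeric actinin). The start inside the Ryr2 cluster is that of a transcript with a retained intron, and over all lists 7 of the 92 genes methylated at a start had only starts of transcripts not annotated as protein-coding in those clusters, Shank1, Slc17a6, Itgb4 and Col2a1 among them. For liver, gut, kidney and pancreas, 3 of 7 were methylated, all of them transcription factors of these organs (Onecut1, Cdx1 and Ptf1a). These last lists rest on few genes, because 12 of 58 and 11 of 67 of their autosomal genes had a promoter cluster at all.

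Genes of other blood lineages were sparsely covered. For T and NK cells 8 of 49 genes had a promoter cluster, and 1 of 4 measured at a start was methylated. This was Eomes, a factor of effector T and NK cells, at 95.5%, 97.2% and 99.1% in Control samples. The T cell kinase Lck was just under the threshold at 79.3%, Tcf7 was at 44.0% and Zbtb7b at 1.10%. Of these, Tcf7 was called for the difference between the series, with 49.8% in Ikaros samples (limma adjusted p = 1.87e-05). For myeloid, erythroid and megakaryocytic genes 3 of 6 were methylated. Cebpb, a myeloid factor, lay between 95.9% and 98.0% in Control samples over 332 positions, and Gata2 and Tal1, factors of blood stem cells and of the erythroid and megakaryocytic lineages, had a median Control level of 97.5% each. Kit, the receptor of stem cell factor, was at 78.0% ± 18.3 in Control and 87.8% ± 12.6 in Ikaros samples (SD, n = 18), so its place under the threshold is within its spread. Prtn3 was at 14.3% and Nfe2 at 3.85% in Control samples, and Prtn3 was at 9.86% in Ikaros samples (limma adjusted p = 4.45e-08).

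Promoters of B lineage genes were free of dense methylation, with 1 exception. Of 15 with a promoter cluster 1 had a methylated one, and of 9 measured at a start 6 had only unmethylated clusters, among them Pax5 (0.938%), the factor that fixes B cell identity, Vpreb1 (0.293%) of the surrogate light chain, and Tcf3 (E2A). Ikzf3 and Syk were intermediate at 25.5% and 23.2% in Control samples. In Ikaros samples they were at 34.8% and 24.1%, and Ikzf3 was called for the difference between the series (limma adjusted p = 7.89e-06). The exception was Ikzf1, which encodes Ikaros. Its promoter region on chromosome 11 held 3 member clusters, at 11685400 to 11685649, 11685839 to 11686045 and 11686154 to 11686297. Principal starts lie in the last of these and, at 11685925, in the middle one. Their Control levels were 98.0% ± 2.03, 97.9% ± 0.827 and 97.9% ± 1.33 (SD, n = 18). The Ikaros samples had 97.6% ± 2.76, 98.5% ± 0.603 and 98.0% ± 1.09 (SD, n = 18), and the series overlapped in each cluster. RRBS does not measure transcription, so no level of the gene goes with these values. The study's methods count the Ikzf1 promoter among those hypersensitive to DNaseI in these cells, without naming the start meant. Whether the 3 clusters lie at the promoter in use was not tested. None of the 37 housekeeping genes measured at a start was methylated, and their 42 clusters ranged from 0.0593% to 6.81%. The single housekeeping gene with a member in its window, Rps18, had that cluster 834 bp from a start, and the cluster that holds its principal start was at 0.251%.

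Genes with a methylated start were also counted in families grouped by symbol. They were 15 of 15 Hox genes (homeobox factors of body patterning), 16 of 16 collagens, 10 of 10 Sox genes, 5 of 5 Nkx genes, 4 of 4 Gata genes and 4 of 4 Tbx genes, and 3 of 3 each among the few keratins and claudins. Potassium channel genes (Kcn) were methylated in 35 of 44, protocadherins in 6 of 7 and cytochromes P450 in 8 of 11. Pax genes gave 3 of 4, with Pax5 as the one that was not, and Lhx and Dlx genes also 3 of 4 each. Forkhead genes were divided, with 12 of 22 methylated (Foxd3, Foxf1 and Foxl2 among them) and others such as Foxo3, Foxk1 and Foxp4 not. Orphan receptors (Gpr) gave 10 of 20, solute carriers 60 of 160, Trim genes 5 of 19 and zinc finger genes of the Zfp symbol 25 of 155. Of 1127 olfactory receptor genes 1 had a promoter cluster, so this family was not measured here. The symbol families were counted with any annotated start of the gene, so a methylated start can belong to a minor transcript.

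In sequence the members looked like other CG-rich promoters, with a slightly lower CpG density. Median GC content was 68.3% in members and 68.5% in the 7683 unmethylated promoter clusters (under 20%), and the median ratio of observed to expected CpG was 0.835 (quartiles 0.726 and 0.934) against 0.894 (0.803 and 0.980). By the usual CpG island criteria (at least 200 bp, GC over 50%, ratio over 0.6), 78.5% of members and 87.9% of unmethylated clusters qualified. Among clusters that held a start, the methylated share was 58.8% at a ratio of 0.4 to 0.6, 36.1% at 0.6 to 0.8, 24.6% at 0.8 to 1 and 22.02% at 1 or more. A second protein-coding gene had a start in the window of 3.37% of members and of 14.9% of unmethylated clusters. These shares are descriptions of one cell line and carry no test.

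**Figure D3:**
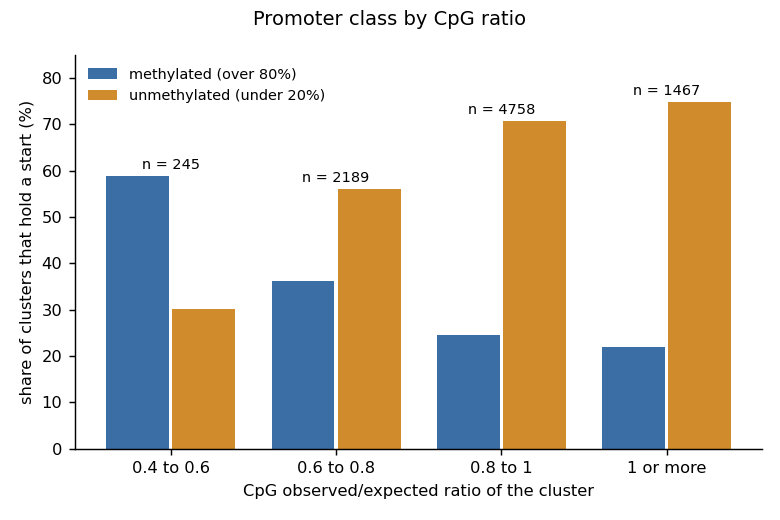
Share (%) of CpG clusters that hold a start which were methylated (over 80%) or unmethylated (under 20%) in the Control series, by ratio of observed to expected CpG; n is the number of clusters, and 3 clusters with a ratio under 0.4 are left out. The methylated share falls from 58.8% to 22.02% with the ratio, and 323 clusters with a ratio of 1 or more were methylated.

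The members with the highest ratio that held a principal start were Zfp618 (1.35), Fam167a (1.31), Scamp5 (1.28), B3galnt1 (1.25) and Eid2 (1.24). Zfp618, a zinc finger gene, was methylated from 97.1% to 100% in Control samples and from 91.6% to 100% in Ikaros samples. Eid2, a gene of a single exon that encodes an inhibitor of differentiation, gave 96.1%, 97.9% and 98.7% in Control and 91.7%, 97.3% and 98.3% in Ikaros samples. Fam167a was the lowest of these, with a median of 92.5% in Control and 95.8% in Ikaros samples. All 5 ratios were above the upper quartile of the unmethylated clusters (0.980).

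The letters of 4 motifs were searched on both strands in the 250 bases before to 50 bases after 1 start per gene. The E2F motif TTCCCGC was found at 9.27% of 2189 methylated starts and 10.5% of all 8653, and the E-box CACGTG at 9.32% and 11.2%. The cyclic AMP response element TGACGTCA was at 2.19% and 3.46%, and the Ikaros core TGGGAA at 17.7% and 18.0%. Among the 17 germline genes with a methylated start, 7 held the E2F motif, 8 the E-box, 3 (17.6%) the Ikaros core and 0 the cyclic AMP response element. Dazl held the E2F motif and the E-box within the printed stretch. A match is a string of letters and not a site of binding.

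The question whether these promoters changed when Ikaros entered the nucleus was addressed by the time course. No member was called for change over time in the Ikaros series by limma with Benjamini-Hochberg adjustment over all 16734 clusters (0% of all clusters called). An unadjusted p under 0.05 was found in 309 members (6.94%), against 5.22% of all clusters. In the Control series 0 members were called (0.012% of all clusters), with 318 members (7.14%) at an unadjusted p under 0.05 against 4.83% of all clusters. The test for a different course over time called 0 members (0% of all clusters), with 313 members (7.03%) at an unadjusted p under 0.05 against 5.12% of all clusters. The mean level over all members was 95.6% ± 0.135 in Control and 95.7% ± 0.189 in Ikaros samples at 0 h, and 95.4% ± 0.168 and 95.9% ± 0.177 at 24 h (SD, n = 3 each). Single samples ranged from 95.2% to 95.8% in the Control series and from 95.6% to 96.1% in the Ikaros series, so the whole range over 36 samples was under 1 percentage point.

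**Figure D4:**
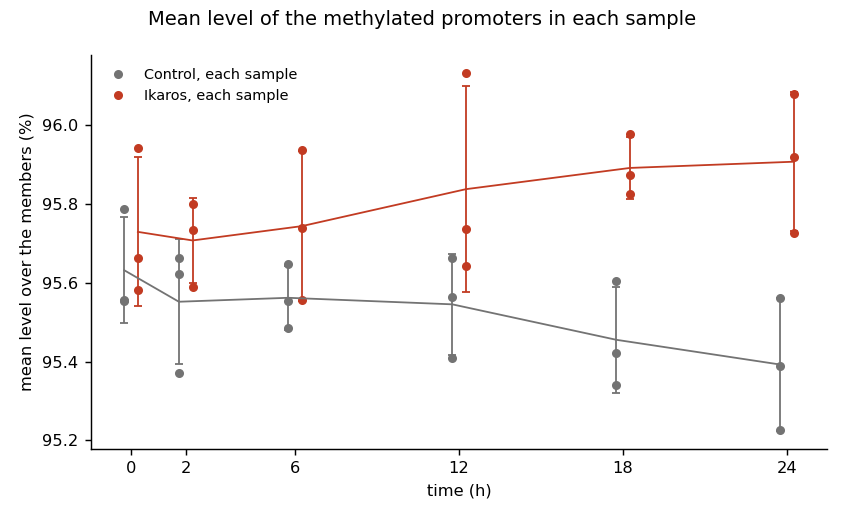
Mean methylation level (%) over the 4454 members in each sample against time (h), with lines through the means of 3 samples and bars of 1 SD; the vertical axis is enlarged and does not start at 0. The Control samples lie between 95.2% and 95.8% and the Ikaros samples between 95.6% and 96.1%.

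Between the series, 189 members differed by limma with the time point as a factor, 179 of them higher and 10 lower in the Ikaros series. The count fell to 66 when the share of exact values and the share of empty values of each sample were covariates, 52 of them among the 189, and without replicate 1, 2 or 3 there were 79, 118 and 86, on fewer samples. Over all clusters 810 (4.84%) were called, 3.71% higher and 1.13% lower. The Control level that chose the members is one side of this difference, so nothing is read from how these shares compare. The called differences had a median of 2.76 percentage points in absolute value, and 34 exceeded 5 points, while the median difference over all 4454 members was 0.133 points. Of the 108 members with a Control level of at most 85%, 36 were called, and of the 3291 above 95%, 41 were. Those nearest the 80% rule were chosen on low Control values, so these counts are given without a reading. The groups did not overlap in 1 member (0.0478% of all clusters).

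Camk1d, a calcium and calmodulin dependent kinase, had the smallest SE of the 5 largest differences. Its cluster (chr2:5714258-5715251, 128 positions, holding a principal start) gave a lowest, median and highest level of 78.6%, 82.4% and 92.4% in Control samples and of 91.7%, 94.2% and 96.1% in Ikaros samples. The difference was 10.8 points, or 1.22 ± 0.0910 (SE) as an M-value, the log2 ratio of methylated to unmethylated level, with a limma adjusted p of 2.25e-10. A single Control sample, replicate 2 at 24 h, reached into the Ikaros range, and the next highest was at 85.9%. This sample was also the highest Control value at Hdac9, Hsd11b2 and Rasd1, and in 35 of the 179 members called higher. Without it the groups did not overlap in 5 members (0.221% of all clusters), namely Camk1d, Hsd11b2, Rasd1, Spire2 and Zfp597, a set singled out after its values were seen.

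Mcoln2, a cation channel of the lysosome that is expressed in lymphocytes, had the largest difference (13.1 points) and a wide spread. Its Control samples gave 68.8%, 80.7% and 91.4% and its Ikaros samples 78.5%, 97.0% and 100%, with an M-value difference of 2.43 ± 0.387 (SE, limma adjusted p = 7.14e-05). Hdac9, a histone deacetylase, was measured 55 bp from the start of a transcript with a retained intron and rose from a median of 80.7% in Control to 92.3% in Ikaros samples (limma adjusted p = 1.22e-07). Hsd11b2, which inactivates glucocorticoids, went from 80.6% to 92.2% (limma adjusted p = 1.21e-06). Tktl2, a transketolase-like gene of a single exon, had its cluster 154 bp from the start and went from 89.96% to 100% (limma adjusted p = 1.01e-06). At Rasd1, the member without overlap, Control samples ranged from 82.1% to 90.4% and Ikaros samples from 90.6% to 97.2%. Prkcq and Dcbld2, just outside the threshold, differed by a similar amount (10.8 and 10.1 points, limma adjusted p = 2.33e-08 and 8.89e-08).

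**Figure D5:**
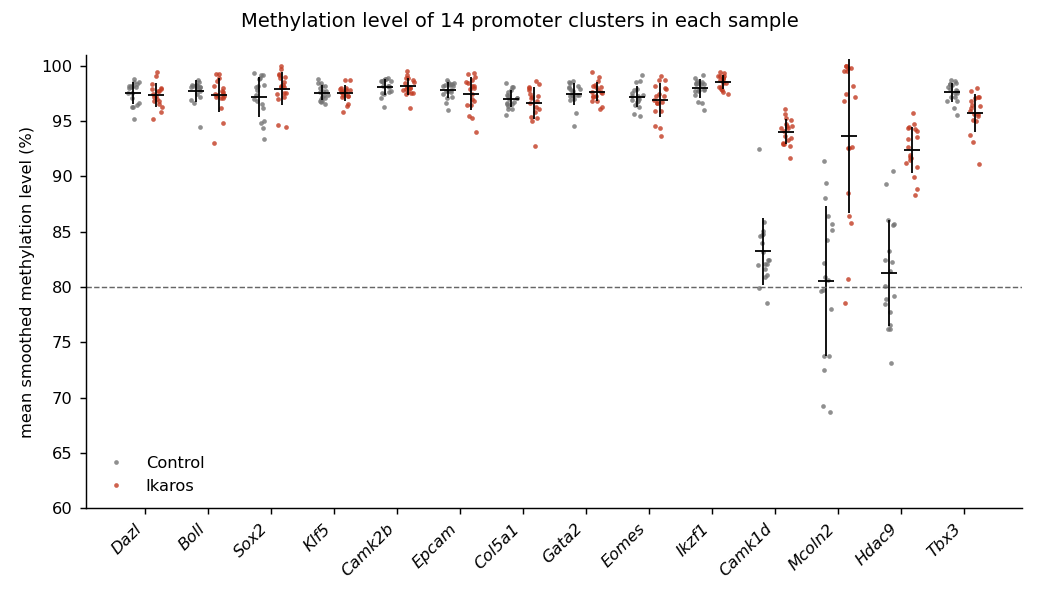
Mean smoothed methylation level (%) of 14 promoter clusters in each of 18 Control and 18 Ikaros samples, with bars for the mean and 1 SD; the dashed line is the 80% rule and the axis starts at 60%. The tissue genes from Dazl to Ikzf1 lie above 92% in all samples, whereas Camk1d, Mcoln2 and Hdac9 are spread around 80% in the Control series and are higher in the Ikaros series.

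The 10 members that were lower in the Ikaros series differed by a mean of -2.90 to -0.825 points, and the 5 with the largest such difference are named here. Bahcc1 fell from a median of 94.3% to 90.8% (limma adjusted p = 0.00579), Adam15, a membrane protease, from 85.8% to 82.7% (limma adjusted p = 0.0457) and Ppp2r2b, a regulatory subunit of a phosphatase, from 93.6% to 90.9% (limma adjusted p = 0.0301). Adgrl3, an adhesion receptor of neurons, went from 98.2% to 96.1% (limma adjusted p = 0.0217), and Tbx3, a T-box factor of limb and stem cells, from 97.7% to 96.0% (limma adjusted p = 0.00401). The Control and Ikaros samples overlapped at all 5. With the share of exact values and the share of empty values of each sample as covariates, all 5 missed the threshold (limma adjusted p = 0.0947 at Bahcc1, 0.0779 at Adam15, 0.484 at Ppp2r2b, 0.513 at Adgrl3 and 0.213 at Tbx3). Ppp2r2b and Adgrl3 also missed it when any one replicate number was left out.

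In the gene lists, 11 of 237 member clusters (4.64%) were called for the difference between the series, where 4.84% of all clusters and 4.24% of all members were. The germline (31 member clusters), nervous system (64), myeloid (16), muscle (6), liver (8) and B lineage (3) lists had 0 called. The vessel and connective tissue list had 4 of 44 (Acan, Esam, Fbln1 and Notch3), all higher in the Ikaros series, and the epithelial list 3 of 33 (Crb3, Jup and Spint1), also higher. For pluripotency 3 of 25 were called, with Klf2 and Sall4 higher and Tbx3 lower, and for T and NK cells Tbx21, higher. At Acan, the cartilage proteoglycan, the levels were 94.9% ± 1.38 in Control and 96.5% ± 1.15 in Ikaros samples (SD, n = 18). With the share of exact values and the share of empty values as covariates, 10 of these 11 missed the threshold, all but Esam. When replicate numbers entered as a block, the same 11 were called and Pdgfra, a receptor of connective tissue cells, was added (limma adjusted p = 0.0493, against 0.0699 without the block).

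Of the 179 members called higher, 169 were higher in the Ikaros series at 0 h, with a median difference of 2.70 points. At later times their median lay between 2.38 points at 12 h and 2.74 points at 18 h. Over all 4454 members the median difference was -0.104 points at 0 h, with 2389 lower in the Ikaros series, and 0.0497, 0.0942, 0.186 and 0.314 points at 2, 6, 12 and 18 h. At 24 h it was 0.567 points, with 2947 higher in the Ikaros series, and no member was called for a different course over time. Within batches of the labels, the median was 3.05 points in batch 1 (6 against 6 samples), 2.35 in batch 3 (5 against 5) and 2.95 in batch 4 (6 against 6), while batch 2 held 1 sample of each series and gave 1.94. These medians are taken over the samples that made the calls and describe their evenness only. The share of values at exactly 0 or 1 in the table was 21% to 36.2% in Control and 26.9% to 59.1% in Ikaros samples. Without Control 0 h replicate 1 and Control 24 h replicate 2, 217 members were called, and without Ikaros 24 h replicate 2, 179.

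Of the 7 members at or under 80% in the Ikaros series, Cxcl3, a chemokine, had the largest drop (from a median of 84.0% to 75.9%), and Slc18a3, the vesicular transporter of acetylcholine, went from 82.7% to 77.4%. The others were Fam69b, Arsj, Shank1 in a second cluster, Dync2h1 and Ccdc151, and none of the 7 was called (limma adjusted p from 0.0559 to 0.929).

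Variation between samples was high in a few members. In 21 of them the SD over the Control samples exceeded 10 points, and in 4 it exceeded 20 points, which were singled out after their values were seen. Cacnb3, a calcium channel subunit, had a cluster of 20 positions at 0% in Control 0 h replicate 3 against a Control median of 95.6%. Znrf4 was at 8.26% in Control 12 h replicate 3 against a median of 96.7%, Gm4969 at 16.6% in Control 18 h replicate 3 against 98.1%, and Phlda2, an imprinted gene of placental growth, at 9.38% in Control 2 h replicate 3 against 88.0%. The Ikaros samples of these 4 clusters were between 77.4% and 100%. These 4 low values came from samples of replicate 3, whereas over the 21 members the lowest Control sample was of replicate 3 in 12, of replicate 1 in 7 and of replicate 2 in 2, with 5 in Control 0 h replicate 1.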

How the data were processed

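The RRBS data cover 36 samples of the B3 line, 18 per series. According to the study's methods and the submitters' processing notes, reads were adapter-trimmed and aligned by the authors to GRCm38 with Bismark 0.10.1 and Bowtie2, very high coverage was limited, and BiSeq was used to smooth levels inside CpG clusters. The deposited values are smoothed methylation levels as a fraction from 0 to 1 (given here in percent) and M-values on a log2 scale, made by the authors from levels limited to 0.01 to 0.99. Smoothing makes neighbouring positions alike and can carry a level a short way across a sharp border. The deposited tables give no coverage, so no coverage minimum or counting error could be applied, and no other columns of samples were present.

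Groups, times and batches came from the labels. A cluster value was the mean over its positions with a value in all 36 samples (895908 positions, 16734 clusters). Starts were those of all transcripts of protein-coding genes in GENCODE M21. The gene lists and families were counted beside all measured genes with no test. Members and lists were chosen with earlier results of these data known. Genes were named by rule. In each list these were the genes with a start inside a member, at most 8 by number of positions. The 3 clusters on either side of the threshold, the 5 largest differences in each direction, any member called for time and the 5 highest CpG ratios were added. Further list genes are given with their level as examples.

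Cluster means of M-values were tested over all 16734 clusters with limma 3.58.1 in R 4.3.3 (lmFit, eBayes), at a Benjamini-Hochberg adjusted p under 0.05. The difference between the series had time as a factor, and change over time and a different course used moderated F tests. The fits were tested on simulated clusters. Sequences and motifs were read from GRCm38 with pyfaidx 0.9.0.4 in Python 3.11.15. Replicates were numbered 1 to 3 in each group in the order of the batch numbers of the labels. Numbers 1 and 3 stand for batches 1 and 4, and number 2 for batch 2 at 0 h and batch 3 at later times. The numbers thus mark shared batches of the labels, except for number 2 at 0 h. A shared label does not make the 0 h cells part of the same time course, since they were collected separately. Deviations from group means correlated with a mean r of -0.000326 over 198 pairs of same-numbered samples, and 0 pairs were above 0.1. Alternatives were the level in place of the M-value, replicate or batch as a block, a mean-variance trend, autosomes alone, covariates for empty and exact values, and samples left out.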

Additional observations from a re-analysis of the deposited data

How the results depend on the processing

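The number of methylated promoter clusters (4454) lay between 3258 and 4562 under the other thresholds, windows, transcript types and rules for positions tried, except that counting only clusters that hold a start gave 2431. Without replicate 1, 2 or 3 it ranged from 4452 to 4460, and with the Ikaros columns in place of the Control columns it was 4506. Between 4446 and 4448 members were above 80% in the Ikaros series when samples were left out.

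For the difference between the series, covariates for empty and exact values gave 66 members in place of 189 (335 of all clusters in place of 810). Without replicate 1, 2 or 3 the count ranged from 79 to 118 (368 to 543 of all clusters), on fewer samples. The replicate block gave 190 members, of which 184 were among the 189, and the batch as a block 193. Under both blocks the time and course tests called 0 members, and of 395 clusters of the gene lists and other genes with printed values, the 38 called ones kept their call and 1 was added (Pdgfra, limma adjusted p = 0.0493 with the replicate block and 0.0462 with the batch). For change over time in the Control series, leaving out a replicate gave 0 to 1 members, the latter at Pcdhga5 without replicate 2. The differences at Mcoln2, Hdac9, Hsd11b2, Camk1d and Tktl2 passed the threshold in all 12 alternatives, while those at Bahcc1, Adam15, Ppp2r2b, Adgrl3 and Tbx3 kept their direction and missed it in 2 to 4, with the covariates among these at all 5. With the covariates 18 of the 38 missed the threshold and 2 others passed it (Fam167a and Olfm2). Without Control 0 h replicate 1 and Control 24 h replicate 2 there were 217 members. The settings that left out named samples were chosen after seeing the data. Unknown depth limits all statements on single clusters.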
